A study of Mus musculus with 6 samples.

Results

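The genes described are Stat5a and Stat5b, which encode both STAT5 transcription factors, and 8 genes known as direct STAT5 targets: Osm, Il2ra, Pim1, Pim2, Pim3, Id1, Bcl6 and Gadd45g. They were chosen by name, with earlier results of these data known. Every probe set was taken whose platform annotation gives one of these 10 symbols as its single gene. This gave 17 of the 35877 probe sets with a gene symbol, and 10 of 18193 genes. RNA was measured on 6 Affymetrix arrays of mouse haematopoietic stem and progenitor cells, sorted from bone marrow as GFP+, lineage-negative, c-Kit+ and Sca-1+. The 3 groups of 2 arrays were cells with an empty GFP vector, cells transduced with BCR/ABL, and BCR/ABL-transduced cells from mice treated with imatinib. All 3 groups share the GFP marker and the sort, and the design text calls the marrow donors CML mice. The labels used here name no strain, age, vector promoter, imatinib dose or treatment time. They also leave open whether replicate arrays represent separate animals, so p-values reflect the spread of these samples alone, possibly technical.

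STAT5 is a latent transcription factor that cytokine receptors activate through JAK kinases. Once phosphorylated on tyrosine it forms dimers, enters the nucleus and binds a palindromic DNA element. BCR/ABL, the fusion kinase of chronic myeloid leukaemia, keeps STAT5 phosphorylated without cytokine, and imatinib blocks that kinase. Where only RNA is measured, STAT5 activity can be read only indirectly, through its targets, since phosphorylation of the protein leaves no direct trace in its own mRNA. The arrays did not measure STAT5 phosphorylation. Most of the targets described here are induced by STAT5, whereas Bcl6 is a target that STAT5 represses in blood cells.

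The element bound by STAT5 dimers is TTCNNNGAA, which reads the same on both strands. It was searched in RefSeq promoter windows of GRCm38.p6 that run from 250 bases before to 50 bases after a transcription start. The windows covered 8 of the 10 genes, with Osm and Id1 not in the table. Bcl6 was the only 1 of the 8 with a match, in both of its windows, while 9.55% of 27025 genes and 8.3% of 32851 windows held one. Among 12 other STAT5 targets the table covered 8, and Cish, Socs3 and Gzmb had a match. The Bcl6 windows are shown because Bcl6 is the member with the most negative change in BCR/ABL cells, and Cish because its start holds a pair of the same elements. Capitals mark each match, and the bases before the start are printed 5′ to 3′.
Bcl6 upstream start, chr16:23988853-23989102, minus strand: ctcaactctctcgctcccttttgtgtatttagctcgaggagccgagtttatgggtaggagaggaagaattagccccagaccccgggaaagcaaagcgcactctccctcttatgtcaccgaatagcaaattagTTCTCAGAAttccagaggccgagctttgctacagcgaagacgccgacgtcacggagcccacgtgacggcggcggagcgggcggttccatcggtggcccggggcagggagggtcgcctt
Bcl6 internal start, chr16:23981284-23981533, minus strand: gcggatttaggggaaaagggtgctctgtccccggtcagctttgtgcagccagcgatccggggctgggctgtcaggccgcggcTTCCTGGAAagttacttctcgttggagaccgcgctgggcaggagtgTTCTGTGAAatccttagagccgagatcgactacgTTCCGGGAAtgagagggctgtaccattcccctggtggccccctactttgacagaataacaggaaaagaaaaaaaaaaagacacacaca
Cish start, chr9:107296659-107296678, plus strand: TTCCTGGAAagTTCTTGGAA
The upstream Bcl6 window held 1 match, whose first base lay at -118 from the start. The internal window lies inside the span of the Bcl6 gene and held 3 matches, beginning at -168, -122 and -88. In Cish the matches began at bases 1 and 12 of the transcript. Such a match is a run of letters and not a measured binding site.

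The arrays were not equally alike within the groups, which bears on every vector value below. More than 2-fold gaps between replicates were seen at 3694 probe sets for the vector pair, 860 for the untreated BCR/ABL pair and 1611 for the imatinib pair. Of the sort markers, Kit was bright, with log2 levels from 10.13 to 11.39, and Ly6a, which encodes Sca-1, was not analysed here. B cell markers, 9 of 10 measured, summed to intensities of 23142 and 4928 on the vector arrays, 1304 and 2428 on the BCR/ABL arrays, and 687 and 1796 on the imatinib arrays. Mast cell and basophil markers, 8 of 8 measured, summed to 11176 and 6600 in vector cells, 34974 and 35146 in BCR/ABL cells, and 56418 and 47894 in treated cells. Intensity of the B cell gene Pax5 was near the floor on all 6 arrays, as was that of the mast cell gene Tpsab1 on both vector arrays. In such sorted pools a smaller share of cells of a type and less RNA per cell cannot be told apart.

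**Figure D1:**
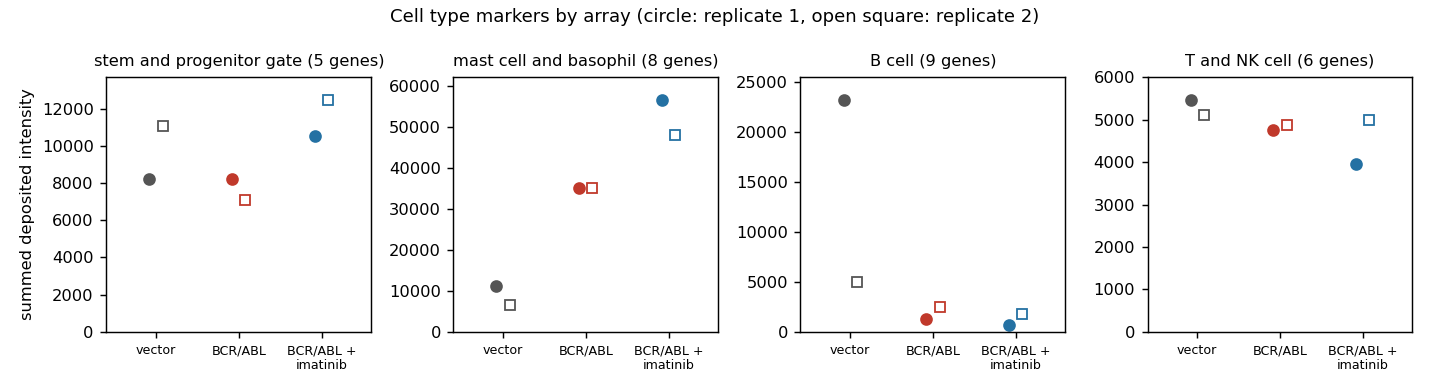
Summed deposited intensity of 4 marker lists on each array, with the vector arrays in grey, BCR/ABL in red and imatinib in blue (circle, replicate 1; open square, replicate 2). B cell markers stood at 23142 in vector replicate 1 and at 4928 or less on the other 5 arrays, and mast cell markers were lowest in vector and highest with imatinib.

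Neither STAT5 gene passed the threshold in any of the 3 comparisons, and the Stat5a values lay close together on all 6 arrays. By its brighter probe set, Stat5a had deposited intensities of 4180 and 4603 in vector cells, 4221 and 3807 in BCR/ABL cells and 4202 and 4777 in imatinib-treated cells. On the log2(intensity + 16) scale, after quantile normalization, its levels were 12.09 ± 0.08 (SD, n = 2), 11.96 ± 0.10 and 12.17 ± 0.15 in that order. The change in BCR/ABL against vector was -0.13 (SE 0.11, 95% interval -0.40 to 0.13, limma adjusted p = 0.679). A 2-fold difference lies outside that interval. With imatinib against untreated BCR/ABL the change was 0.21 (95% interval -0.05 to 0.48, adjusted p = 0.442).

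Stat5b had intensities of 1386 and 2525 in vector cells, 2029 and 1750 in BCR/ABL cells and 2438 and 2714 in imatinib-treated cells. The vector arrays straddled both untreated BCR/ABL arrays, and the imatinib arrays were above the untreated ones. Its changes were -0.01 (95% interval -0.67 to 0.65, adjusted p = 0.992) for BCR/ABL against vector and 0.49 (95% interval -0.18 to 1.15, adjusted p = 0.489) for imatinib against untreated cells. The second probe sets of both genes were dim, between 24.6 and 91.2 in intensity, and neither passed in any comparison. Direction was not settled for changes this small. Centring arrays on their medians, which itself moved the median of all probe sets to 0.20, gave 0.08 for Stat5a and 0.22 for Stat5b in BCR/ABL against vector.

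Osm encodes oncostatin M, a secreted cytokine of the interleukin-6 family and an early target of STAT5 in cytokine-stimulated blood cells. Its intensities were 235 and 187 in vector cells, 2516 and 1615 in BCR/ABL cells and 597 and 397 in imatinib-treated cells. Both BCR/ABL arrays were far above the other 4, and both imatinib arrays lay between the BCR/ABL and the vector arrays. The log2 levels of 7.80 ± 0.12, 10.97 ± 0.44 and 8.93 ± 0.46 differed by 3.16 for BCR/ABL against vector (SE 0.31, 95% interval 2.40 to 3.92), or 8.96-fold on this scale. Only 59 of 18193 genes, Osm included, were this much higher or more. The adjusted p of 0.0705 in limma missed the threshold of 0.05. Osm against untreated BCR/ABL was -2.04 with imatinib (SE 0.31, 95% interval -2.80 to -1.28, adjusted p = 0.108), and 45 genes were as much lower or more.

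Osm was called higher in BCR/ABL cells when probe sets below the 30th percentile of mean signal were left out (adjusted p = 0.00934), and passed under 7 of 17 alternatives in all. Over the 17 its value kept its sign, between 2.82 and 3.46, with adjusted p from 0.000473 to 0.636. The same filter called the imatinib difference too (adjusted p = 0.0465, range 0.0121 to 0.520).

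The oncostatin M receptor pairs a partner chain with a shared signalling chain. Osmr, which encodes such a partner chain, was close to the floor of 4 on every array, with log2 levels from 4.08 to 4.56. Il6st, the shared signalling chain gp130, was at 10.34 and 10.41 in vector cells, 8.83 and 8.89 in BCR/ABL cells and 8.81 and 9.73 in imatinib-treated cells. Its change in BCR/ABL against vector was -1.51 (adjusted p = 0.219), and the groups did not overlap. Lifr, which pairs with gp130, had 0.50 (adjusted p = 0.818) with vector arrays at 5.72 and 7.85. None of these 3 genes passed in any comparison.

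Il2ra encodes CD25, the alpha chain of the interleukin-2 receptor, and is a known marker of some leukaemic stem cells. Its brighter probe set had intensities of 51.4 and 23.4 in vector cells, 1053 and 311 in BCR/ABL cells and 239 and 159 in imatinib-treated cells. The 3 groups did not overlap, but the BCR/ABL arrays were more than 3-fold apart, at 10.05 and 8.42 on the log2 scale. The Il2ra difference was 3.59 for BCR/ABL against vector (SE 0.62, 95% interval 2.07 to 5.12, adjusted p = 0.169) and did not pass. Counting Il2ra, 31 genes were as much higher or more. The vector values of Il2ra were dim, and the size of the difference depended on the added constant, at 4.10 with 1 and 2.74 with 64. Imatinib against untreated BCR/ABL gave -1.61 (95% interval -3.14 to -0.08, adjusted p = 0.316).

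The second Il2ra probe set ordered the arrays in the same way, at 26.2 and 8.74, 463 and 118, and 97.7 and 61.3. Its changes were 3.03 (adjusted p = 0.268) and -1.63 (adjusted p = 0.360). For the brighter probe set the size of the imatinib difference depended on which arrays were kept. Without BCR/ABL replicate 1 it was -0.78, and without BCR/ABL replicate 2 it was -2.41. Without imatinib replicate 1 it was -1.96, and without imatinib replicate 2 it was -1.28. The other interleukin-2 receptor chain measured, Il2rb, was at 7.07 and 4.96 in vector and at 5.87 and 5.38 in BCR/ABL, a change of -0.39 (adjusted p = 0.864). T cells and B cell precursors also carry CD25. The T and NK cell markers, 6 of 8 measured, summed to intensities of 5459 and 5105 in vector cells, 4752 and 4871 in BCR/ABL cells and 3950 and 4989 in imatinib-treated cells. Most of each sum was 1 gene, Nkg7, at 4490 and 5010, 4709 and 4794, and 3879 and 4879, so the sums say little of the other markers. In BCR/ABL against vector 5 of the 6 markers were lower and 1 higher, with a median of -1.13 and 0 passed. Among them Cd3e was at 7.65 in vector replicate 1 and between 4.17 and 5.34 on the other 5 arrays. The part of T and B cells in the Il2ra values was not tested.

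The PIM kinases are serine/threonine kinases that act without an activating partner and promote survival and growth downstream of STAT5. The 3 genes differed in these data. Pim1 was bright, with intensities of 6412 and 7628 in vector cells, 7332 and 7163 in BCR/ABL cells and 7854 and 7719 in imatinib-treated cells. Its change in BCR/ABL against vector was 0.10 (SE 0.10, 95% interval -0.13 to 0.33, adjusted p = 0.728), so a 2-fold difference lies outside the interval. Imatinib against untreated BCR/ABL gave 0.11 (95% interval -0.12 to 0.34, adjusted p = 0.676). A second Pim1 probe set was near the floor, at 2.90 and 2.85, 11.7 and 13.3, and 28.1 and 34.4. On it the groups did not overlap, and the changes were 0.67 (adjusted p = 0.303) and 0.49 (adjusted p = 0.286), but values this dim cannot be separated from background here.

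Pim2 had intensities of 236 and 583 in vector cells, 1360 and 905 in BCR/ABL cells and 690 and 710 in imatinib-treated cells. The BCR/ABL arrays were highest and the imatinib arrays lay between them and vector. The difference of 1.54 (SE 0.46, 95% interval 0.42 to 2.66, adjusted p = 0.334) depended on the vector arrays, being 0.86 without vector replicate 1 and 2.22 without vector replicate 2. For imatinib against untreated cells it was -0.67 (95% interval -1.78 to 0.45, adjusted p = 0.583), and -0.39 without BCR/ABL replicate 1 and -0.94 without BCR/ABL replicate 2. The SE of this imatinib difference was 0.46 in the fit that includes the vector arrays and 0.22 with only the 4 arrays compared. For Osm the same 2 fits gave 0.31 and 0.32.

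Pim3 was measured by 3 probe sets, of which the brightest and the dimmest are of a type whose probes can match other transcripts. The brightest had intensities of 3119 and 2748 in vector cells, 4899 and 4341 in BCR/ABL cells and 3338 and 2479 in imatinib-treated cells. Only the BCR/ABL arrays stood apart, while those of vector and imatinib overlapped. The changes were 0.64 (SE 0.16, 95% interval 0.25 to 1.04, adjusted p = 0.290) and, with imatinib, -0.65 (95% interval -1.05 to -0.26, adjusted p = 0.166). Another probe set gave 0.72 (adjusted p = 0.354) and -0.83 (adjusted p = 0.189). The third was between 5.96 and 24.0 in intensity and gave 0.06 and -0.01. With arrays centred on their medians the imatinib difference of the brightest was called, at -1.01 (adjusted p = 0.0333, range 0.0333 to 0.565 over 17 alternatives), where the median of all probe sets stood at -0.27.

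Among the nuclear regulators, Id1 and Bcl6 were on opposite sides. Id1 encodes an inhibitor of basic helix-loop-helix factors that holds back differentiation. Its intensities were 332 and 465 in vector cells, 1512 and 1510 in BCR/ABL cells and 546 and 381 in imatinib-treated cells. The BCR/ABL arrays were nearly equal and above all others, whereas vector and imatinib arrays overlapped. The log2 levels of 8.67 ± 0.40, 10.56 ± 0.01 and 8.82 ± 0.42 gave 1.88 for BCR/ABL against vector (SE 0.28, 95% interval 1.19 to 2.57, adjusted p = 0.129) and -1.73 with imatinib (95% interval -2.42 to -1.04, adjusted p = 0.117). Id1 in imatinib-treated cells differed from vector by 0.15 (95% interval -0.54 to 0.84, adjusted p = 0.863).

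Bcl6, a transcriptional repressor of B cell and stress programmes, had intensities of 1884 and 1219 in vector cells, 579 and 615 in BCR/ABL cells and 1667 and 1903 in imatinib-treated cells. Both BCR/ABL arrays were lowest, and the imatinib arrays overlapped the upper part of the vector range. Levels were 10.60 ± 0.44, 9.28 ± 0.06 and 10.82 ± 0.15. The changes were -1.32 for BCR/ABL against vector (SE 0.23, 95% interval -1.88 to -0.77, adjusted p = 0.165) and 1.55 for imatinib against untreated cells (SE 0.23, 95% interval 0.99 to 2.10, adjusted p = 0.108). In the imatinib comparison 80 genes were as much higher or more. The dimmer probe set gave -0.69 (adjusted p = 0.629) and 0.52 (adjusted p = 0.696), with 117 and 36.2 in vector. Of the vector arrays, replicate 1 had both the higher Bcl6 and the higher B cell marker sum. With imatinib against untreated cells the 9 B cell markers had a median of -1.13, with 0 passed. The groups did not overlap for 5 of 9, all lower, beside 51.5% of all genes in either direction, a share near it. The part of B cells in the Bcl6 values was not tested.

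Id1 was called in BCR/ABL against vector above the 30th percentile (adjusted p = 0.0399, range 0.00627 to 0.730 over 17 alternatives), and so was Il2ra (adjusted p = 0.0427, range 0.00896 to 0.742). Bcl6 was called under the same filter for imatinib (adjusted p = 0.0465, range 0.0238 to 0.520). Gadd45g, a stress-inducible growth arrest gene, had intensities of 578 and 249 in vector cells, 301 and 268 in BCR/ABL cells and 447 and 366 in imatinib-treated cells. Vector spanned the other arrays, and its change of -0.36 (95% interval -1.34 to 0.61, adjusted p = 0.764) was 0.19 without vector replicate 1.

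**Figure D2:**
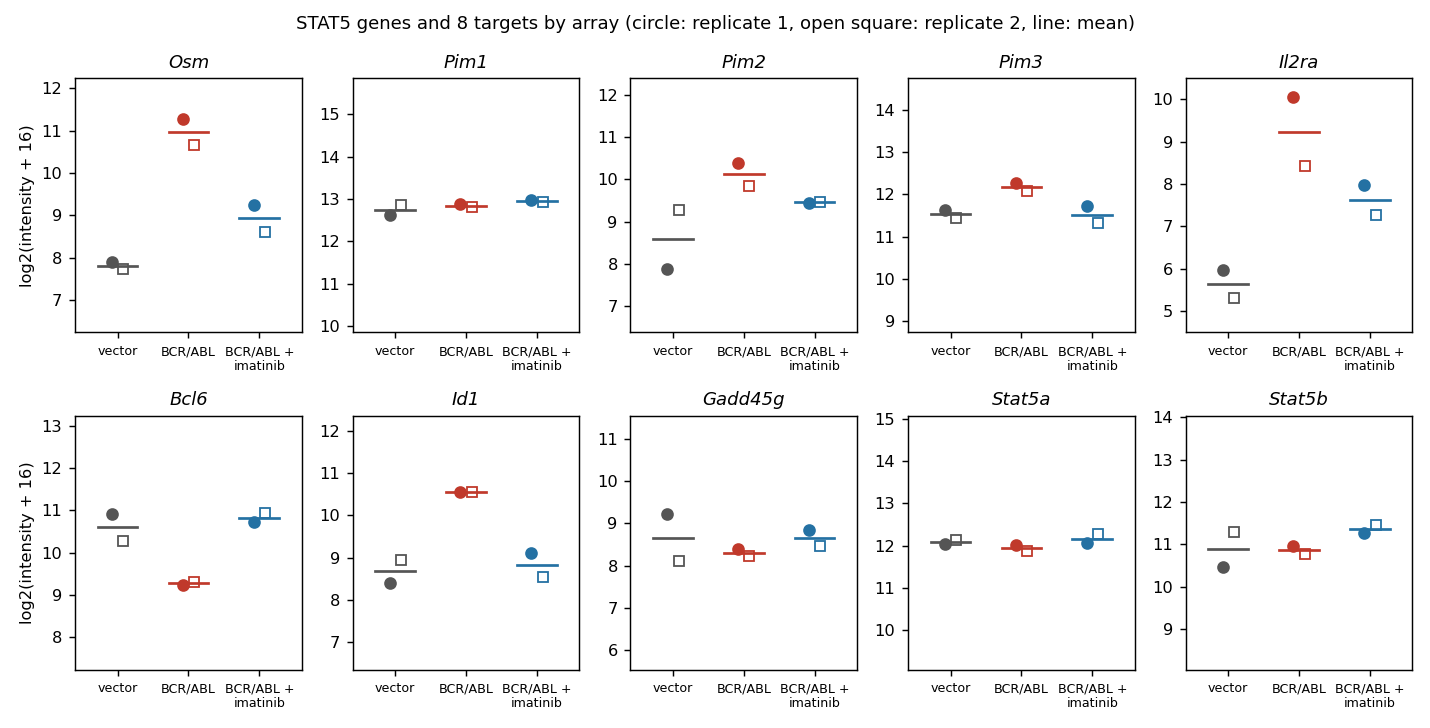
Normalized log2(intensity + 16) of the brightest probe set of each of the 10 genes on each array (circle, replicate 1; open square, replicate 2; line, mean of 2 arrays), with every panel spanning the same height. Osm, Il2ra, Pim2, Pim3 and Id1 were highest on both BCR/ABL arrays and Bcl6 lowest, while the Pim1 and Stat5a values lay close together on all 6 arrays.

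Counted over the brightest probe set of each gene, 0 of 10 genes passed in BCR/ABL against vector by limma, beside 0.104% of all genes called. At an unadjusted p under 0.05 there were 6 of 10, beside 12.7% of all genes: Osm, Il2ra, Id1, Pim2 and Pim3 higher, and Bcl6 lower. The groups did not overlap for 7 of 10, 5 higher and 2 lower, beside 43.9% of all genes in either direction. The median change of the 10 was 0.37, against 0.01 over all genes. With imatinib against untreated BCR/ABL 0 of 10 passed, beside 0% of all genes, and 5 of 10 had an unadjusted p under 0.05, beside 17% of all genes. These were Osm, Il2ra, Id1 and Pim3 lower and Bcl6 higher. The groups did not overlap for 10 of 10, 5 higher and 5 lower, beside 51.5% in either direction, and the median was -0.27 against -0.01. Besides Bcl6 the higher ones were Stat5b, Gadd45g, Stat5a and Pim1, each at an unadjusted p above 0.05. Both comparisons use the same untreated BCR/ABL arrays, so their values for a gene are not independent. The 10 genes were chosen with earlier results of these data known, so their shares beside all genes are a description and not a test. Of the 8 mast cell and basophil markers, 1 passed higher in BCR/ABL against vector (median 2.47), and 0 passed with imatinib against untreated cells (median 0.82). Of the 5 stem and progenitor markers measured 0 passed in either comparison, with medians of -0.09 and 0.83. Kit had -0.63 (adjusted p = 0.290) and 1.13 (adjusted p = 0.108), and Flt3, a receptor of early progenitors, had -1.08 (adjusted p = 0.392) and 1.36 (adjusted p = 0.202). The signs of Kit and Flt3 are those of Bcl6 and opposite to those of Osm, Il2ra and Id1. Not all of the list shared them: Cd34 had -0.09 and 0.20, whereas Slamf1 had 0.24 and 0.44 and Procr 0.55 and 0.83, positive in both comparisons. The part of either marker list in the values of the 10 genes was not tested.

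In imatinib-treated BCR/ABL cells against vector 0 of 10 passed, beside 0.0824% of all genes. At an unadjusted p under 0.05 there were 2 of 10, beside 16.6%, and 4 of 10 did not overlap, beside 44.2%, a share near that of all genes. The 2 genes were Osm, at 1.12 (SE 0.31, 95% interval 0.36 to 1.88, adjusted p = 0.236), and Il2ra, at 1.98 (SE 0.62, 95% interval 0.45 to 3.51, adjusted p = 0.275). Both genes had every imatinib array above every vector array. Pim3 and Bcl6 differed from vector by -0.01 (95% interval -0.41 to 0.38) and 0.23 (95% interval -0.33 to 0.78). Leaving out 1 array turned the sign of the Pim3, Bcl6, Id1, Gadd45g and Stat5a values in this comparison.

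**Figure D3:**
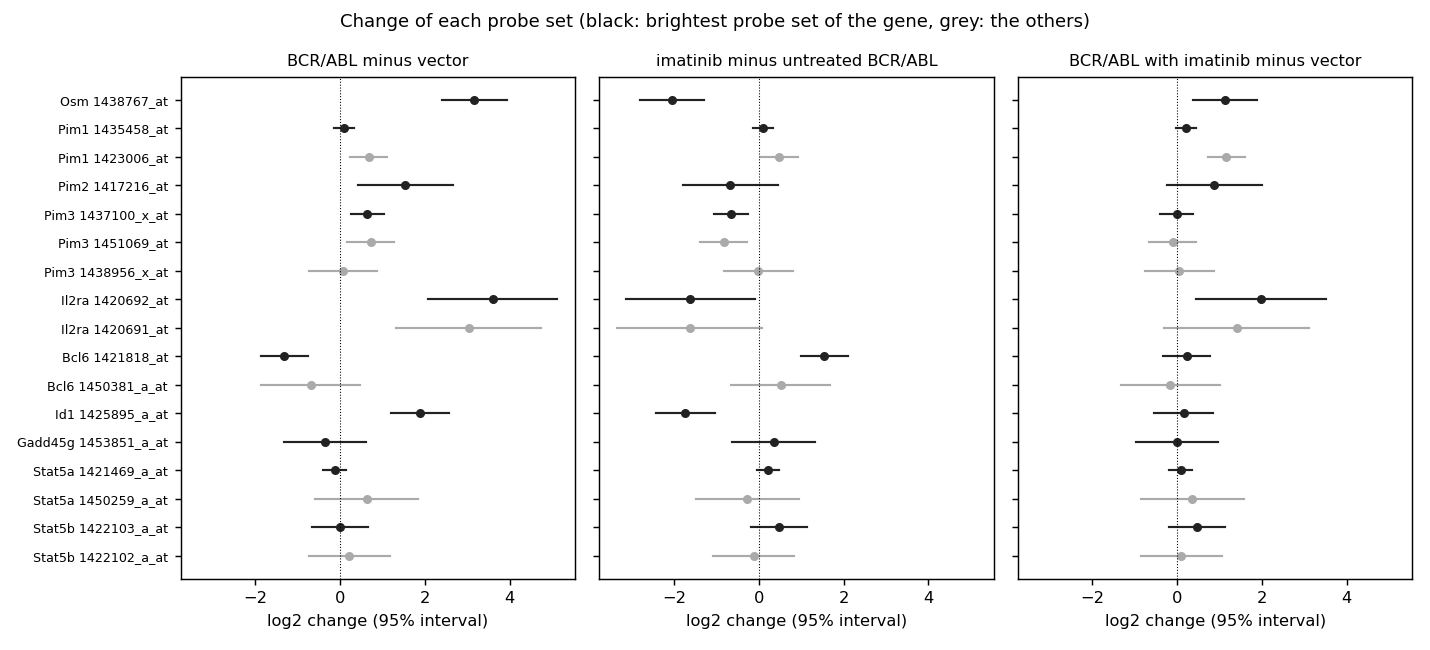
Log2 change of all 17 probe sets in the 3 comparisons, with 95% intervals from limma (black, the brightest probe set of a gene; grey, its other probe sets). For BCR/ABL against vector, among the brightest probe sets, the intervals of Osm, Il2ra, Id1, Pim2 and Pim3 lay above 0 and that of Bcl6 below it. Of the other probe sets, those of Il2ra and Pim1 and 1 of Pim3 also lay above 0, that of Bcl6 and the dimmest of Pim3 included 0, and none of the 17 passed after adjustment over 35877 probe sets.

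The order of the levels differed between genes. For Osm, Il2ra and Pim2 it was vector, imatinib and then BCR/ABL, with no overlap between neighbours. For Id1 and Pim3 the BCR/ABL arrays were highest, and imatinib and vector did not differ beyond their spread. For Bcl6 the BCR/ABL arrays were lowest, with the same overlap of the other groups. For Stat5b and Gadd45g the vector arrays overlapped both other groups. For Pim1 vector overlapped BCR/ABL, and for Stat5a it overlapped imatinib, over a range too narrow to order the groups.

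Of the 12 other STAT5 targets, 1 passed higher and 0 lower in BCR/ABL against vector, beside 0.104% of all genes called. The median of the 12 was 0.48, against 0.01 over all genes. The gene that passed was Gzmb, which encodes the protease granzyme B, at 3.81 (SE 0.26, adjusted p = 0.0217). Its value with imatinib against untreated cells was 1.21 (adjusted p = 0.141). In treated cells against vector it passed at 5.02 (adjusted p = 0.0194), beside 0.0824% of all genes called. The mast cell marker sum was likewise highest with imatinib, and its part in this value was not tested. Among the SOCS family of JAK-STAT feedback inhibitors, the values for Cish, Socs2 and Socs1 were 2.39 (adjusted p = 0.138), 1.30 (adjusted p = 0.241) and 1.22 (adjusted p = 0.337). Socs3 of that family had 0.27 (adjusted p = 0.822) and, with imatinib, 0.21 (adjusted p = 0.868), with overlapping groups in both. With imatinib Cish had -1.77 (adjusted p = 0.139) and Socs1 -1.66 (adjusted p = 0.142), whereas Socs2 had 0.07 (adjusted p = 0.954), with levels of 12.34 and 12.26 beside 11.37 and 10.48 in vector. None of the 12 passed with imatinib against untreated cells, beside 0% of all genes, and their median was -0.21 against -0.01.

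The upstream kinases and other STAT genes had values between -0.76 and 0.23 for BCR/ABL against vector. Of 8 measured, 0 passed in any comparison, and the medians were -0.02 for BCR/ABL against vector and 0.30 with imatinib. Jak2, the kinase used by the erythropoietin and interleukin-3 receptors, had -0.08 (adjusted p = 0.845) and 0.43 (adjusted p = 0.208). Stat3 and Stat4 had 0.58 (adjusted p = 0.246) and 0.74 (adjusted p = 0.208) with imatinib. Stat2, which acts in interferon signalling, had -0.76 in BCR/ABL cells (adjusted p = 0.497). Phosphatases and other inhibitors of the pathway, 10 measured, also had 0 calls, with medians of 0.15 and 0.06. Within them Pias1 had -0.49 (adjusted p = 0.356), and the phosphatase gene Ptprc -0.33 (adjusted p = 0.396).

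Of the receptors that signal through STAT5, 9 of 12 were measured and 0 passed in any comparison. Il7r, the interleukin-7 receptor of lymphoid progenitors, was at 11.08 and 10.01 in vector cells, 8.43 and 8.96 in BCR/ABL cells and 11.21 and 10.27 in imatinib-treated cells. Its changes were -1.85 (adjusted p = 0.289) and 2.05 (adjusted p = 0.146). The groups overlapped only between vector and imatinib, as they did for Bcl6. Csf2rb2 and Csf2rb, which encode beta chains of the interleukin-3 family of receptors, had 1.40 (adjusted p = 0.312) and 0.72 (adjusted p = 0.308), and with imatinib 0.13 and 0.07. These genes are similar in sequence, so their separate values are uncertain.

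Close relatives of the members had 0 calls among 6, with a median of -0.35 in BCR/ABL against vector. Id3, which like Id1 encodes an inhibitor of helix-loop-helix factors, was at 8.50 and 6.04 in vector and at 5.30 and 5.77 in BCR/ABL, a change of -1.74 (adjusted p = 0.477) against 1.88 for Id1. Bcl6b, the homologue of Bcl6, was at 8.53 and 6.49 in vector and had -1.71 (adjusted p = 0.460). In both genes vector replicate 1, the array with most B cell marker signal, was highest, and the part of those cells in the values was not tested. Gadd45a had -0.05 in BCR/ABL cells and 0.87 with imatinib (adjusted p = 0.123).

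**Figure D4:**
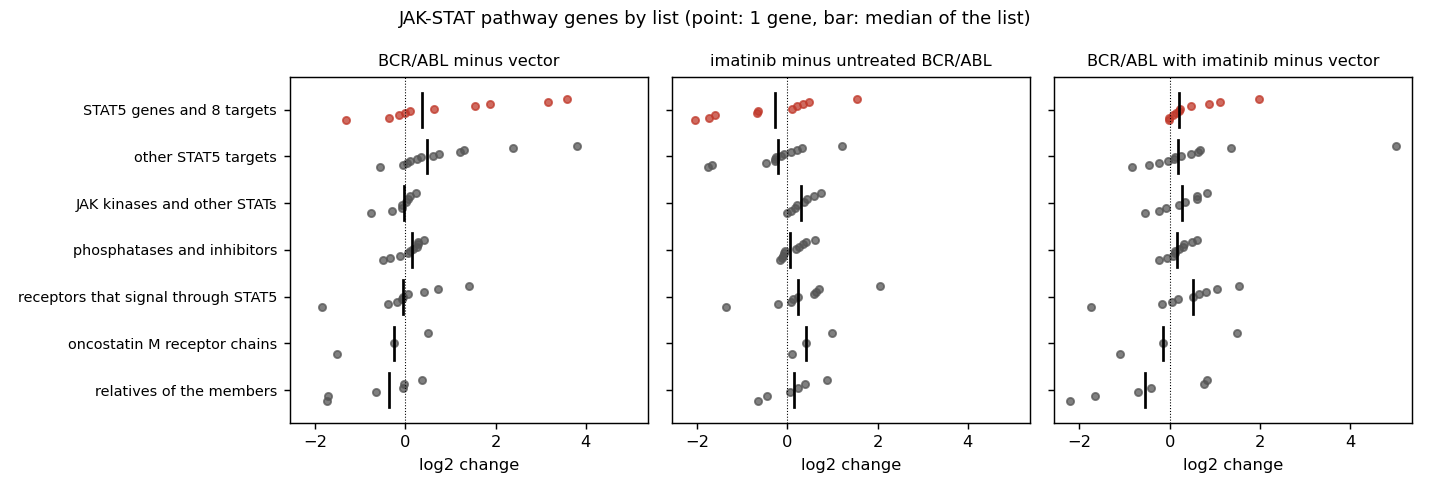
Log2 change of each gene (point) and the median (bar) for the STAT5 genes with their 8 targets in red and for 6 lists of related genes in grey, in the 3 comparisons. In BCR/ABL against vector the values ran from -0.76 to 0.23 for the kinases and other STATs, from -0.49 to 0.40 for the inhibitors, from -0.55 to 3.81 for the other targets, from -1.85 to 1.40 for the receptors, from -1.51 to 0.50 for the oncostatin M receptor chains and from -1.74 to 0.36 for the relatives.

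Genes with profiles most like a member were sought over the 6 arrays, as the smallest root mean square distance between log2 profiles centred on their means. Nearest to Osm were Cdkn2b, an inhibitor of cyclin-dependent kinases, Hgf, the hepatocyte growth factor gene, and Akr1c19, at distances of 0.256, 0.257 and 0.276. The median distance of all genes to Osm was 1.35. Cdkn2b had changes of 3.20 in BCR/ABL against vector and -1.90 with imatinib, and Hgf had 3.33 and -1.87. Nearest to Il2ra were Fxyd4, the transcriptional repressor gene Bhlhe40 and Osm itself, at 0.418, 0.439 and 0.481. Nearest to Bcl6 were Ap3m2, a subunit of an endosomal adaptor complex, C230037L18Rik and 1600020E01Rik, at 0.134, 0.142 and 0.190, and the median of all genes was 0.755. For Pim1 the nearest were Acadl, Tmem164 and Poldip3, at 0.0302 to 0.0336, and Pim1 itself spanned 0.355. These points share the same 6 arrays, and the distances carry no test.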

How the data were processed

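The authors made the deposited intensity values, 1 linear value per probe set, with Affymetrix Expression Console and MAS5, per the submitters' processing notes, which as used here give no versions. Every array had been scaled to a mean of 500 after trimming 2% at both ends. The design text names a whole-transcript array, whereas the probe set identifiers belong to a 3-prime array, whose platform annotation gave the gene names. Without detection calls a dim value was not distinguished from background, and having 6 arrays limits the precision.

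Of 45101 probe sets 64 controls were left out, and the 35877 with a symbol were tested without a filter. Values were taken as log2(intensity + 16), which sets a floor of 4 and understates changes of dim genes. Array medians differed by 0.50, so values were quantile normalized. All 3 comparisons came from 1 fit over 6 arrays in limma 3.58.1 (R 4.3.3, eBayes with trend), two-sided, with Benjamini-Hochberg adjustment over all probe sets and a threshold of 0.05. The procedure was run on simulated data with the same spread in every group and changes only in brighter probe sets. Such data cannot show how it performs with the unequal spread of these arrays or near the floor. The brightest probe set by mean log2 value stands for a gene. All 10 members are named, up to 4 genes of each related list with Socs3 in addition, and the 3 genes nearest to each of 4 members. All 17 member probe sets matched a RefSeq gene of GRCm38.p6 by Entrez identifier. Members and lists were chosen with earlier results of these data known. No set test was run. Alternatives covered normalization, the added constant, filters, the variance prior, the replicate block, averaging of probe sets, the arrays in the fit and leaving out each array.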

Additional observations from a re-analysis of the deposited data

How the results depend on the processing

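With 2 arrays a group, 1 array can decide a call. Where an array was left out, the lone remaining array of its group was assumed to vary like the others. No member passed in any of those fits.

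The number of members past the threshold in BCR/ABL against vector was 0 as tested. It was 3 with array medians, 3 above the 30th and 3 above the 50th percentile, beside 298 of 35877, 189 of 25114 and 132 of 17938 probe sets. It was 1 with an added constant of 1, with a robust prior or with probe sets of a gene averaged. Beside these stood 83 of 35877 probe sets, 42 of 35877 probe sets and 38 of 18193 genes. Under imatinib against untreated cells the number of members was 4 with array medians, 2 above the 30th and 3 above the 50th percentile. Over all probe sets these settings called 1200 of 35877, of which 1133 were lower, 142 of 25114 and 211 of 17938. For imatinib-treated cells against vector the number of members stayed at 0 under all 17 alternatives. Of 510 single-gene values under alternatives, 466 kept direction and side of the threshold, 22 became calls and 22 turned sign. Signs turned only in values that were not called. In BCR/ABL against vector Stat5a was 0.082 with array medians and 0.25 with averaged probe sets, and Stat5b was 0.22, 0.10 and, with the deposited scaling, 0.010. With imatinib Pim1 was -0.22 and Stat5a -0.17 with array medians, and Stat5a -0.028 with averaged probe sets. Against vector, imatinib-treated cells had -0.086 for Stat5a with array medians and 0.086 for Gadd45g with the deposited scaling. The shift of the median of all probe sets with array medians was 0.20, -0.27 and -0.093 in the 3 comparisons. No cause of these differences between settings was tested, and this includes the smaller number of probe sets that the filters leave.

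Leaving out 1 array gave ranges for BCR/ABL against vector of -0.023 to 0.22 for Pim1, -0.91 to 0.19 for Gadd45g and -0.43 to 0.40 for Stat5b. For imatinib-treated cells against vector they were -0.21 to 0.19 for Pim3, -0.087 to 0.54 for Bcl6, -0.14 to 0.45 for Id1, -0.56 to 0.55 for Gadd45g and -0.025 to 0.19 for Stat5a.

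Over all probe sets, 22 were called in BCR/ABL against vector. Array medians gave 298, an added constant of 1 gave 83, the 30th and 50th percentile filters 189 and 132, no trend 0, a robust prior 42, averaged probe sets 38 and only the 4 arrays compared 14. Leaving out 1 array gave 0 to 38. With imatinib against untreated cells 0 were called as tested and in every fit without 1 array, and 5238 had an unadjusted p under 0.05. Array medians gave 1200 (67 higher, 1133 lower), an added constant of 1 gave 3 and the filters 142 and 211. For imatinib-treated cells against vector 16 were called. Array medians gave 275, added constants of 1 and 64 gave 78 and 3, the filters 188 and 181, no trend 0, a robust prior 28, only the 4 arrays compared 0, and leaving out 1 array 0 to 50.

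Same-numbered arrays did not pair clearly: their deviations correlated at -0.08, 0.16 and 0.146. With the replicate number as a block, 1 member, Osm, passed in BCR/ABL against vector (3.16, adjusted p = 0.0341, range 0.000473 to 0.636), and 9 probe sets were called for imatinib-treated cells against vector.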
